A study of Mus musculus with 24 samples.

Results

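In a study of kidney inner medulla, the 3 saline libraries with the least RNA of the thick ascending limb (male saline 2, female saline 1 and female saline 6) were set against the other 10 saline libraries (male saline 1 and 3 to 6, female saline 2 to 5 and 7), of 24 libraries in all. The 3 were chosen by their levels of Umod and Slc12a1. Umod encodes uromodulin, the protein that thick ascending limb cells secrete into urine, and Slc12a1 encodes NKCC2, the sodium, potassium and chloride cotransporter of the same cells. These levels chose the split, so they are given once as a description. Umod had 983, 1242 and 293 CPM (counts scaled to a common library size) in male saline 2, female saline 1 and female saline 6, against 1626 to 6894 CPM in the other 10, and Slc12a1 had 1194, 942 and 451 CPM against 1766 to 4771 CPM. Female saline 1 was the nearest inside the split by Umod, male saline 2 by Slc12a1, and female saline 7 was the nearest outside by both. The split is therefore a division along a range, with female saline 6 farthest down it.

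All 13 libraries were made from inner medulla of the inbred mouse strain C57BL/6, aged 9 to 10 weeks. Each mouse had a single intraperitoneal injection of saline in 100 µl, and the tissue was taken 72 h later and frozen. The 3 low libraries were 1 of 6 male and 2 of 7 female saline libraries, and the 11 cisplatin libraries of the series are not used. Whether the libraries are from different mice is not stated in the labels, so the p-values below measure the spread between libraries.

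The kidney is layered. Thick ascending limbs run through the outer medulla and cortex, take up sodium chloride without water, and are rich in mitochondria, while the inner medulla holds inner medullary collecting ducts, thin limbs, interstitial cells and the capillaries called vasa recta. The S3 end of the proximal tubule lies in the outer stripe of the outer medulla, and intercalated cells, which secrete acid or bicarbonate, lie along the collecting duct and thin out towards the papilla. The comparison asks which transcripts vary with the amount of thick ascending limb RNA in a dissected inner medulla and which do not. How the tissue was cut is not recorded per library, and its part in any value below was not tested.

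Total counts were 22994045 to 25706266 in the 3 low libraries and 18084242 to 26109251 in the other 10. Markers of the labelled tissue were present in every library. Aqp2, the water channel of the collecting duct, stood at 7732, 6147 and 9009 CPM in male saline 2, female saline 1 and female saline 6, against 5102 to 8583 CPM in the other 10. Slc14a2, the urea transporter of the inner medullary collecting duct, had 535 to 777 CPM in the 3 low libraries and 423 to 727 CPM in the other 10. Other libraries also stood apart. Female saline 1 held T lineage transcripts, described below. Among the other 10, female saline 2 and female saline 4 had the highest levels of Fos, an immediate early gene, at 54.8 and 48.1 CPM, against 3.98 to 15.9 CPM in the remaining 8. In addition, female saline 2 had 133 CPM of Pdgfra, a receptor of interstitial cells, where the remaining 9 had 261 to 370 CPM.

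A pair of measures was used. The first is the log2 fold change of the 3 low libraries over the other 10, with a term for sex. This contrast chose the libraries, so it has no test: a gene is counted when it is at least 2-fold and all 3 values lie outside the range of the other 10, on CPM rescaled after low genes were removed. The CPM printed here are scaled over all genes, and by them 901 genes lay below and 571 above all 10, against 977 and 476 as counted. The second leaves out the 3 low libraries, but its score uses the genes that chose the split. Within the other 10 libraries alone, each gene was fitted against a score, the mean log2 CPM of Umod and Slc12a1, with edgeR's quasi-likelihood test, a term for sex and Benjamini-Hochberg adjustment over all genes. A slope of 1 means that a transcript varied in proportion to the thick ascending limb RNA, and a slope of 0 that it did not follow it. Scaled over all 13 libraries, the score ran from 10.73 in female saline 7 to 12.49 in male saline 6. It stood at 10.08, 10.08 and 8.51 in male saline 2, female saline 1 and female saline 6. The fit used the score scaled over the other 10 alone, which ran from 10.73 to 12.47 in the same libraries, female saline 7 and male saline 6.

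In the description of the 3 low libraries, 279 of 17918 genes (1.56%) were at least 2-fold lower and 45 (0.251%) at least 2-fold higher, and nothing is read from these shares because the contrast chose the libraries. In the fit within the other 10, 189 of 16678 genes (1.13%) rose with the score and 15 (0.0899%) fell, Umod and Slc12a1 left out. That count leaned on 1 library: without female saline 7, which has the lowest score of the 10, 16 genes rose and 2 fell, and without it and male saline 6, which has the highest, 4 rose and 0 fell. The other libraries whose removal took the count of rising genes down past 1.5-fold were female saline 5 (62), female saline 4 (74), male saline 3 (91) and male saline 4 (121), and without female saline 2 it was 285. A difference of slope between males and females passed an adjusted p of 0.05 in 0 genes (edgeR), and 1038 genes had an unadjusted p under 0.05 for that difference. Female saline 7 was also the lowest of the 10 for 538 (55.1%) of the 977 genes (5.45% of those measured) whose 3 low libraries lay below all 10. The 3 low libraries lay above all 10 for 476 genes (2.66%).

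The thick ascending limb list, without the pair that chose the split, had the highest median slope of the lists with more than 1 gene. Of 13 listed genes with enough counts, 11 lay below all 10 other libraries in the 3 low ones, 9 of them at least 2-fold, with a median log2 difference of -1.83 against 0.00 over all genes. Over all genes measured, 5.45% lay below all 10, 2.66% above, and 1.56% were at least 2-fold lower. The list counts here and below stand beside those shares as descriptions, because the contrast chose the libraries. Within the other 10, 12 of the 13 slopes were positive with a median of 0.69, against 0.00 over all genes. The test was passed by 6 of them, where 1.13% of all genes rose. Without female saline 7 its median was 0.58, and those of the macrophage (0.77) and erythroid (1.43) lists were higher. Fewer thick ascending limb cells and less RNA per cell cannot be told apart in bulk tissue. The other 2 listed genes, Cldn14 and Enox1, had too few counts in any library.

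Egf encodes the precursor of epidermal growth factor, made in the kidney by thick ascending limb and distal tubule cells. It had 260.2, 414 and 107 CPM in male saline 2, female saline 1 and female saline 6, against a lowest, median and highest value of 757, 1248 and 1698 CPM in the other 10. The groups did not overlap, and female saline 6 was the lowest of all. Within the other 10 its slope was 0.73 ± 0.12 (SE, adjusted p = 0.0117, edgeR). Kcnj1 encodes ROMK, the apical potassium channel that returns potassium to the lumen for the cotransporter. It had 105, 105 and 52.4 CPM in the 3 low libraries in the same order, against 207, 317 and 579.6 CPM in the other 10, and a slope of 0.73 ± 0.12 (adjusted p = 0.0105). Casr, the calcium-sensing receptor of the basolateral side, had 10.8, 15.8 and 3.04 CPM, against 19.4, 39.3 and 58.6 CPM, and a slope of 0.81 ± 0.15 (adjusted p = 0.0204). None of these 3 genes had overlapping groups, and each was lowest in female saline 6.

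Ptger3 and Tmem72 had the steepest passing slopes of the list. Ptger3, a receptor for prostaglandin E2, had 53.8, 56.6 and 24.981 CPM in male saline 2, female saline 1 and female saline 6, against a lowest, median and highest value of 92.2, 141 and 241 CPM in the other 10. Its slope of 0.90 ± 0.10 (SE, adjusted p = 0.00186, edgeR) was close to proportional, and it was 1.15 with an adjusted p of 0.0134 without female saline 7. Tmem72, a membrane protein gene, had 64.0, 56.5 and 27.6 CPM in the 3 low libraries and 104, 177 and 275 CPM in the other 10. Its slope was 0.83 ± 0.08 (adjusted p = 0.00105), and 0.89 with an adjusted p of 0.0241 without female saline 7. These were the 2 members of the list that also passed without that library. Ppp1r1a, an inhibitor of protein phosphatase 1, had the 6th passing slope, 0.69 ± 0.09 (adjusted p = 0.00502), with 157, 99.9 and 76.0 CPM in the low libraries and 202, 368 and 539.7 CPM in the others.

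**Figure D1:**
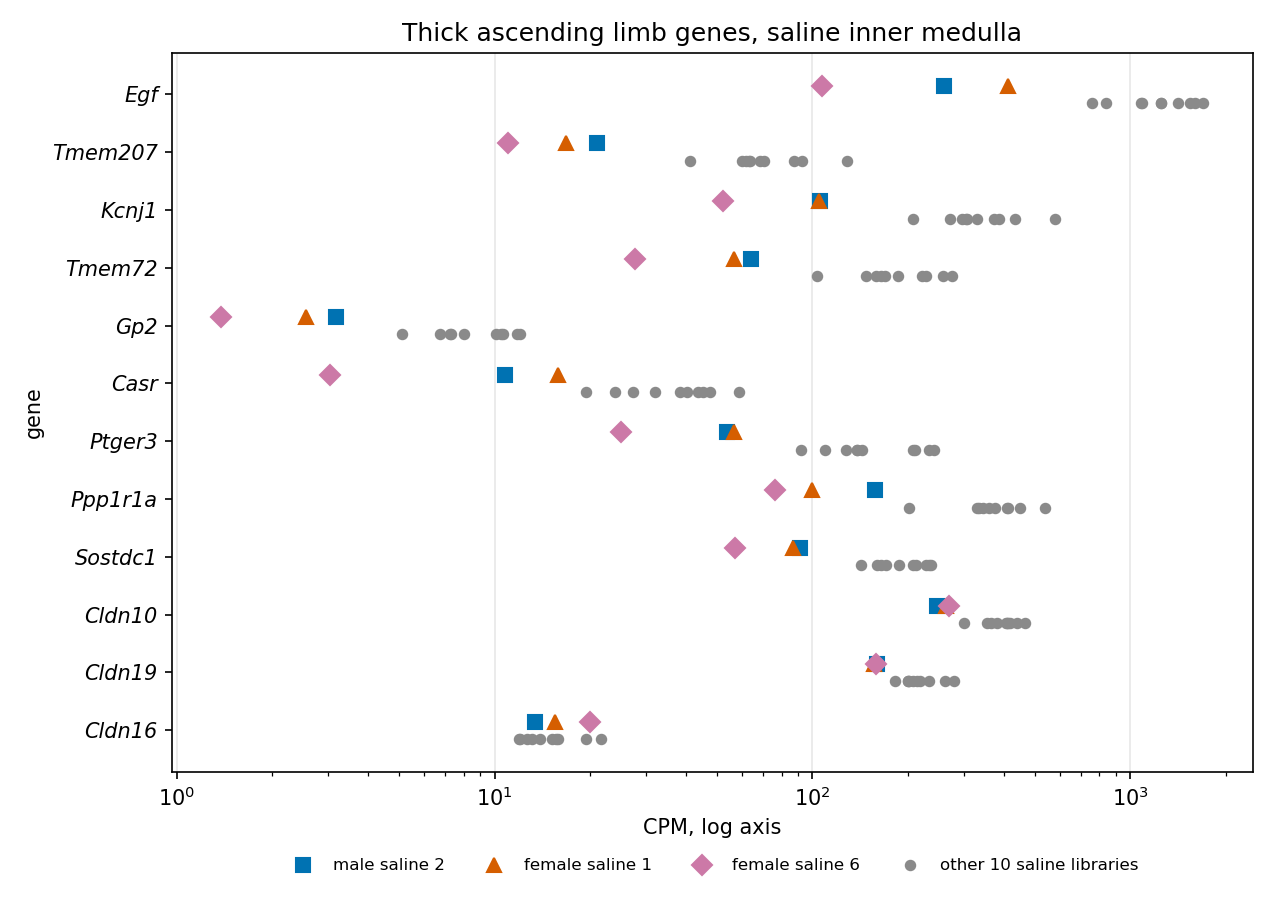
CPM on a log axis of 12 thick ascending limb genes in each saline library, the 3 low libraries as coloured symbols and the other 10 as grey points below them. For 11 genes all coloured symbols lie left of the grey points, Egf, Tmem207 and Kcnj1 at the top being farthest apart, whereas Cldn16 overlaps.

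The claudins of the segment had lower slopes. Claudins seal or open the space between cells to ions. Cldn10 had 246, 264 and 269.6 CPM in the 3 low libraries, against 299.8, 408 and 465.74 CPM in the other 10, a log2 difference of -0.62, and its slope of 0.32 ± 0.08 did not pass (adjusted p = 0.0863, edgeR). Cldn19 and Cldn16, which form the paracellular path for magnesium and calcium and were singled out after their values were seen, had slopes of 0.01 ± 0.13 (adjusted p = 0.990) and -0.28 ± 0.17 (adjusted p = 0.553). Cldn19 nonetheless lay below all 10 in the 3 low libraries. It had 160, 156 and 159 CPM in male saline 2, female saline 1 and female saline 6, against 182, 211 and 279 CPM, a log2 difference of -0.50. Cldn16 had 13.4, 15.5 and 19.9 CPM in male saline 2, female saline 1 and female saline 6, against 11.9, 14.5 and 21.6 CPM, so its groups overlapped throughout. A further 3 members were singled out after their values were seen, being at least 2-fold lower with slopes that did not pass: Tmem207 (log2 difference -2.14, slope 0.70 ± 0.17, adjusted p = 0.0676), Sostdc1 (-1.31, 0.44 ± 0.10, adjusted p = 0.0672) and Gp2 (-1.92, 0.62 ± 0.21, adjusted p = 0.206).

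Beyond the list, the genes with the smallest p among those that rose held several transport and signalling genes. Slc9a3 encodes NHE3, the sodium and proton exchanger of the proximal tubule and thick ascending limb. It had 45.9, 30.9 and 12.2 CPM in male saline 2, female saline 1 and female saline 6, against 52.5, 108 and 160.0 CPM in the other 10, and a slope of 0.87 ± 0.11 (SE, adjusted p = 0.00294, edgeR). Pla1a, a phospholipase gene, had the smallest p of all genes apart from the pair that chose the split. Its levels were 19.7, 16.9 and 8.15 CPM in the low libraries and 31.8, 59.4 and 82.3 CPM in the other 10, and its slope was 0.80 ± 0.07 (adjusted p = 0.000455). Adcy1, an adenylyl cyclase that makes cyclic AMP, followed with 17.8, 17.1 and 5.38 CPM against 24.5, 44.0 and 63.3 CPM and a slope of 0.82 ± 0.09 (adjusted p = 0.00147). For all 3 genes the groups did not overlap, and female saline 6 was the lowest library.

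The rest of the 12 genes of smallest p had slopes from 0.56 to 0.90 and adjusted p-values from 0.00105 to 0.00269. Kng2 encodes a kininogen, the precursor of kinins, and had 109.6, 98.1 and 35.9 CPM in the 3 low libraries, against 161, 327 and 435 CPM in the other 10. Plau encodes urokinase, a plasminogen activator that is released into urine, and had 176, 175 and 98.9 CPM against 352, 593 and 868 CPM. Slc16a7, a carrier of monocarboxylates such as lactate and pyruvate, had 95.1, 104 and 38.7 CPM against 160.0, 284 and 392 CPM. Every low library lay below every other library for each of the 12. Bckdhb (a subunit of the enzyme that breaks down branched-chain keto acids), Wfdc15b, Cyfip2 (a regulator of actin) and Plscr2 completed the set, together with Tmem72 and Ptger3. Without female saline 7 the slopes of Pla1a (0.82), Adcy1 (0.98), Wfdc15b (0.86), Bckdhb (0.65), Kng2 (0.66), Plau (0.64), Slc16a7 (0.85), Tmem72 and Ptger3 still passed, whereas those of Cyfip2, Plscr2 and Slc9a3 had adjusted p-values of 0.0511, 0.0511 and 0.0632.

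Promoters of the thick ascending limb list and of the 12 rising genes of smallest p were examined in windows of 250 bases before to 50 after the start of transcription, read from RefSeq on GRCm38.p6. An entry was found for 18 of these 25 genes. Both strands were searched for TCAAGGTCA, the extended site bound by estrogen-related receptors, and then for the shorter nuclear receptor site AAGGTCA, which TCAAGGTCA contains. TCAAGGTCA was in 0 windows of the 138 rising genes with an entry. It was in a window of 0.338% of the genes tested for a slope with an entry, and in 0.423% of all 32851 windows, so 0 is near the background. Shares of genes count a match in any window of a gene, which can have several, so they are not in the same unit as shares of windows. AAGGTCA was in the windows of 8 of the 138 rising genes (5.8%), against 4.2% of all genes tested for a slope and 4.72% of all windows. A match is a description of these letters and not a site of binding. The 3 windows below are those of the genes named above that hold AAGGTCA or its reverse complement TGACCTT, shown in capitals, each written 5′ to 3′ along the strand of its gene. They lie at chr16:26526722-26527021 (Tmem207, whose slope did not pass, minus strand), chr11:7063183-7063482 (Adcy1, plus strand) and chr2:164221614-164221913 (Wfdc15b, minus strand).
Tmem207: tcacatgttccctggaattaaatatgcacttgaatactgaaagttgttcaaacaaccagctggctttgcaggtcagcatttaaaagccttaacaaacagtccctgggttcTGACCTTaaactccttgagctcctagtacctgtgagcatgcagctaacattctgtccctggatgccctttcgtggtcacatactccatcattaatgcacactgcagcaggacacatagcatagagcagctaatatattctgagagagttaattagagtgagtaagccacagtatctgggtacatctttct
Adcy1: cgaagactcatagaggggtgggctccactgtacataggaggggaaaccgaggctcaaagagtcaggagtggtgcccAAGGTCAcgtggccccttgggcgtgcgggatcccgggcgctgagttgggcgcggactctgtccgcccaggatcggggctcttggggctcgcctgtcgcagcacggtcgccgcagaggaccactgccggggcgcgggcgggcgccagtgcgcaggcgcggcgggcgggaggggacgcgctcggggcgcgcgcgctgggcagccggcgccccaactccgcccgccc
Wfdc15b: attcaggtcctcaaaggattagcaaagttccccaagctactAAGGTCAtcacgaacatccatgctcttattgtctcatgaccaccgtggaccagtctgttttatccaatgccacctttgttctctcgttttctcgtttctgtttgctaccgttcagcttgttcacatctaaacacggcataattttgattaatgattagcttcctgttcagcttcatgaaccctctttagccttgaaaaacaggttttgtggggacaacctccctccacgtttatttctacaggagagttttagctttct

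Esrrb and Esrrg encode receptors that bind the extended site, and were singled out after their values were seen. Other receptors that bind it are not reported here, so this pair does not stand for the family. Slopes of the pair without female saline 7 are not reported here either, and any link of the pair to the rising genes was not tested. Esrrb, the estrogen-related receptor beta, averaged 45.0 ± 10.7 CPM in the 3 low libraries and 94.3 ± 21.5 CPM in the other 10 (SD), and rose with the score with a slope of 0.68 ± 0.10 (SE, adjusted p = 0.00762, edgeR). Esrrg, the gamma receptor, averaged 17.2 ± 6.92 CPM in the 3 low libraries and 44.3 ± 10.5 CPM in the other 10, and its slope was 0.66 ± 0.11 (adjusted p = 0.0158).

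**Figure D2:**
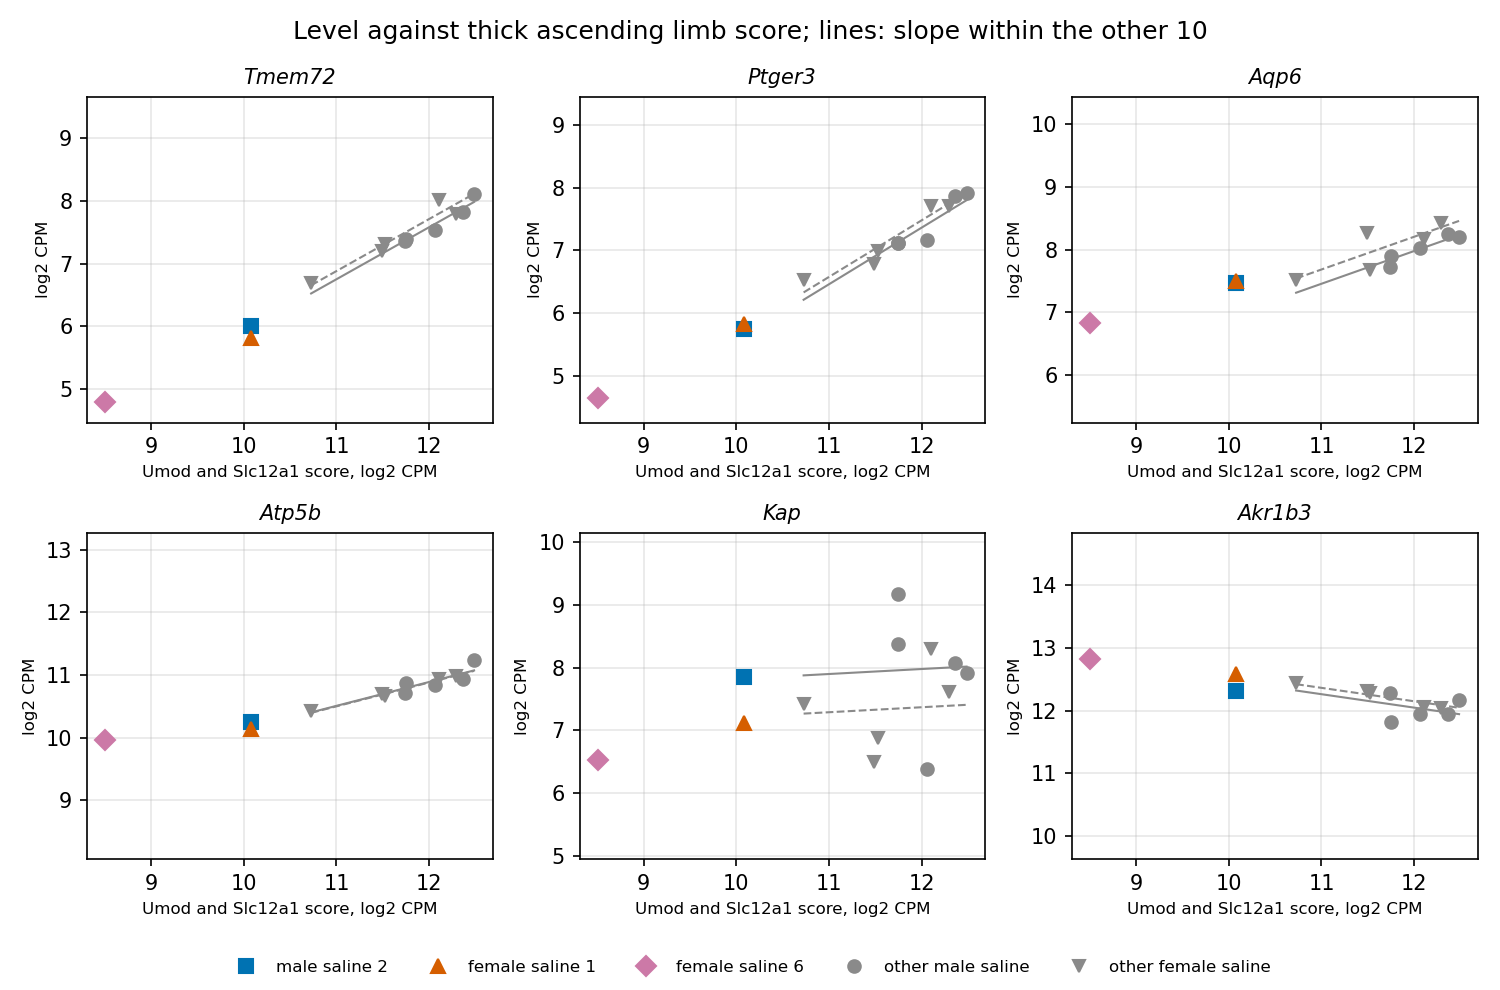
Log2 CPM of 6 genes against the score (mean log2 CPM of Umod and Slc12a1) in the 13 saline libraries, with the slope fitted in the other 10 libraries drawn for males (solid) and females (dashed) over the range of those libraries, and equal spans of the vertical axis. Tmem72 and Ptger3 climb steeply, Aqp6 and Atp5b less so, Kap scatters without a trend and Akr1b3 tilts slightly downward.

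Of the 12 genes with the lowest differences, 7 also rose with the score, against 1.13% of all genes, and 2 of the 7, Pla1a and Elfn1, still passed without female saline 7. Both measures rest on Umod and Slc12a1, so the overlap is a description and not separate support. Glod5, with a glyoxalase domain, had 0.752, 1.27 and 0.807 CPM in male saline 2, female saline 1 and female saline 6, against a lowest, median and highest value of 4.23, 5.61 and 11.0 CPM in the other 10, a log2 difference of -2.74. Its slope of 0.78 ± 0.20 did not pass (adjusted p = 0.0975, edgeR). Abca13, a lipid transporter of the ABC family, had 47.0, 40.8 and 17.0 CPM against 83.5, 145 and 229 CPM, and its slope of 0.74 ± 0.12 passed (adjusted p = 0.0124). Dusp15, a dual specificity phosphatase (slope 0.80), Elfn1 (0.84), Sult1c2, a sulfotransferase (0.66), and Gm47708 (0.63) passed as well, beside Egf and Pla1a. Fndc9, Lama1 (a laminin chain), Tmem207 and Hist1h1d (a linker histone) did not pass, and Hist1h1d had a slope of -0.25 ± 0.60 (adjusted p = 0.909).

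Most intercalated cell genes were lower in the 3 low libraries. Of 13 genes with enough counts, 9 lay below all 10 other libraries in the 3 low ones, against 5.45% of all genes. Of these, 2 were at least 2-fold lower, Kit (a receptor tyrosine kinase) and Insrr (an alkali-sensing receptor), against 1.56% of all genes. The list's median log2 difference was -0.86. All 12 genes with a slope had a positive one, with a median of 0.41, and 2 passed (1.13% of all genes rose). Aqp6, a channel of the intracellular vesicles of acid-secreting intercalated cells, had 177, 180.4 and 114 CPM in the 3 low libraries, against 183, 273 and 342 CPM in the other 10, and a slope of 0.52 ± 0.11 (SE, adjusted p = 0.0474, edgeR). Rhcg, an ammonia channel, had 68.8, 84.3 and 41.9 CPM against 92.2, 129.8 and 166 CPM, and a slope of 0.43 ± 0.09 (adjusted p = 0.0417). Slc4a1, the basolateral chloride and bicarbonate exchanger AE1, had 130.1, 129.7 and 113 CPM against 183, 235 and 344 CPM, and its slope of 0.41 ± 0.13 did not pass (adjusted p = 0.194). By the printed CPM 8 lay below, since Atp6v1b1, a subunit of the proton pump, had 49.6 CPM in female saline 1 and 49.4 CPM in female saline 7. It had a slope of 0.58 ± 0.13 (adjusted p = 0.0586). Neither of the 2 passing genes passed without female saline 7 (adjusted p = 0.247 for Aqp6 and 0.145 for Rhcg), while the median slope was 0.42 there.

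Genes of mitochondrial respiration were lower in the 3 low libraries by a smaller factor. Transcripts encoded in the mitochondrial genome made up 3.38%, 3.73% and 2.68% of counts in male saline 2, female saline 1 and female saline 6, against 3.87% in female saline 7 and 4.59% to 6.18% in the remaining 9. Of these 13 genes, 11 lay below all 10 other libraries (10 by the printed CPM), against 5.45% of all genes. Of the 13, 0 were 2-fold lower, with a median log2 difference of -0.71. All 13 slopes were positive with a median of 0.38, and 4 passed: mt-Nd2 (0.45 ± 0.08), mt-Nd4 (0.44 ± 0.08), mt-Cytb (0.44 ± 0.09) and mt-Co1 (0.41 ± 0.09), with adjusted p-values of 0.0214, 0.0214, 0.0427 and 0.0410 by edgeR. Without female saline 7 none of the 4 passed (adjusted p of 0.163, 0.201, 0.263 and 0.225), and the median slope was 0.41. The highest, mt-Co1, encodes a subunit of cytochrome c oxidase. It had 13296, 14665 and 10014 CPM in the low libraries, against 15138, 21114 and 26341 CPM in the other 10, with no overlap.

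Nuclear genes of oxidative phosphorylation were also lower. Of 16 genes measured, 15 lay below all 10 other libraries in the low ones, against 5.45% of all genes, and 0 of them were 2-fold lower. The median log2 difference was -0.58, and Ndufb8, singled out after its values were seen, overlapped. All 16 slopes were positive, from 0.14 to 0.39 with a median of 0.32, and 4 passed: Ndufs1 (0.32 ± 0.06, adjusted p = 0.0214), Ndufv1 (0.33 ± 0.07, adjusted p = 0.0327), Uqcrfs1 (0.39 ± 0.08, adjusted p = 0.0336) and Atp5b (0.38 ± 0.08, adjusted p = 0.0351), by edgeR. Atp5b, the catalytic beta subunit of ATP synthase, had 1219, 1123 and 1001 CPM in the 3 low libraries, against 1375, 1849 and 2416 CPM in the other 10. Without female saline 7 none of the 4 passed (adjusted p from 0.111 to 0.218) and the median slope was 0.30. Atp1b1 and Fxyd2, the beta and gamma subunits of the sodium pump, which drives salt uptake in the tubule, lay below all 10 too. Atp1b1 had 2067, 2123 and 1989 CPM in the 3 low libraries, against 2212, 2638 and 3316 CPM in the other 10. Their slopes of 0.21 and 0.22 did not pass (adjusted p = 0.318 for both, edgeR).

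Genes of glycolysis had smaller values. Of 14 genes, 5 lay below all 10 other libraries (4 by the printed CPM) and 0 were 2-fold lower, with a median log2 difference of -0.17 and a median slope of 0.12, and none passed the slope test (4 had an unadjusted p under 0.05). The difference between these slopes and those of the respiratory genes was not tested.

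**Figure D3:**
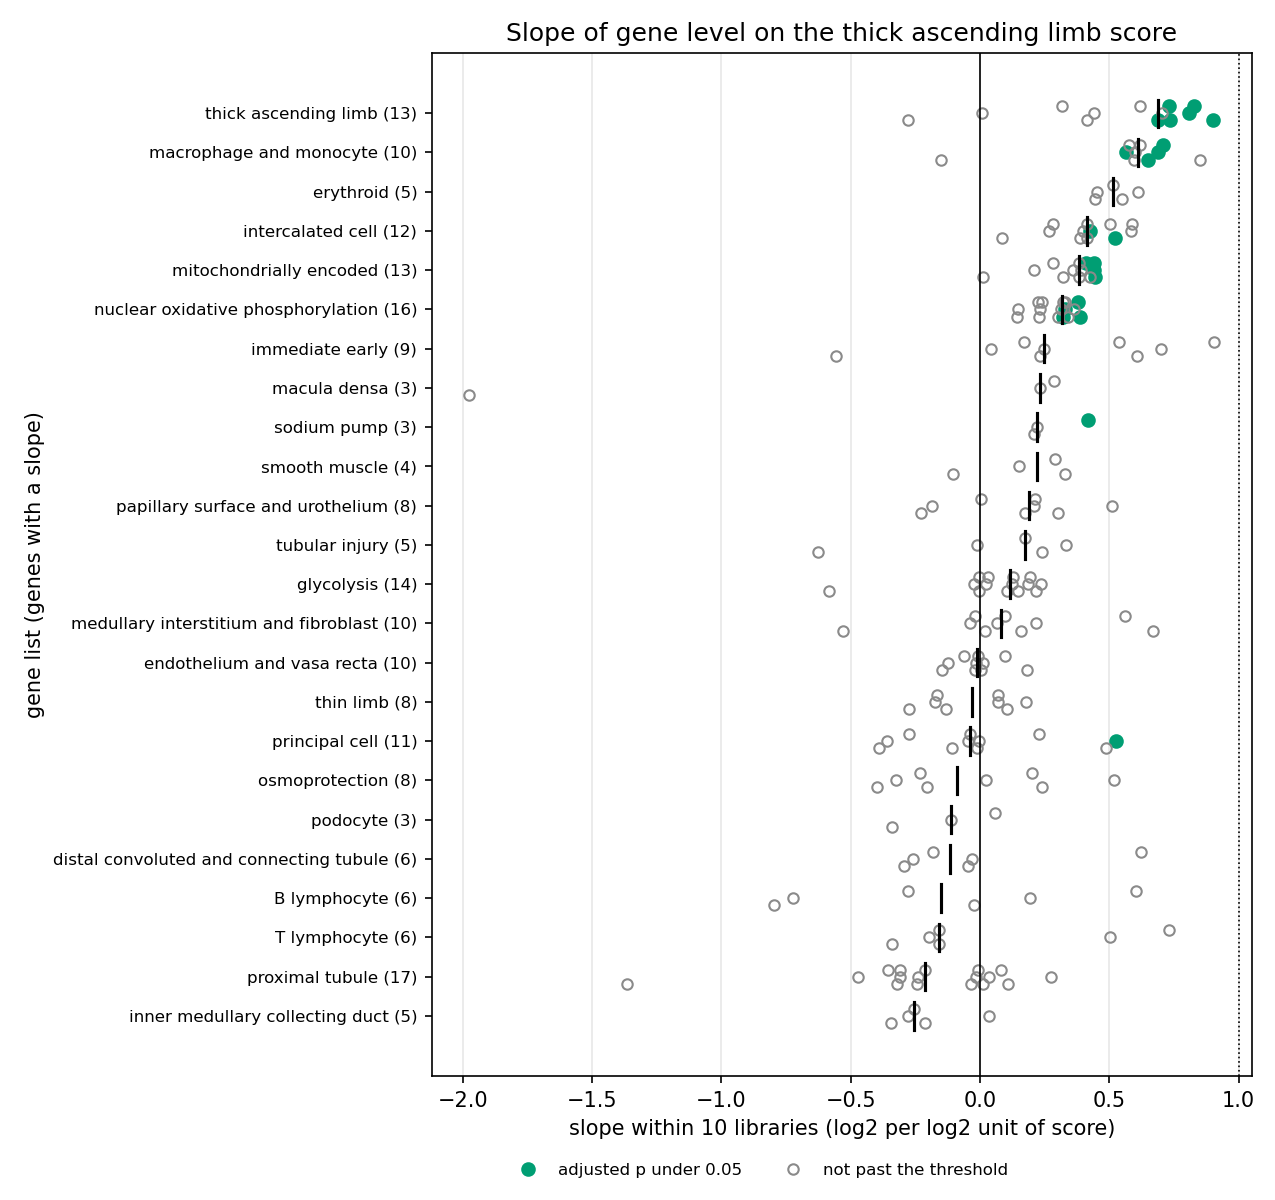
Slope of each gene's level on the score within the other 10 libraries (log2 change per log2 unit of score) by gene list, filled points for genes with an adjusted p under 0.05, open points for the rest, vertical bars for list medians, and the dotted line at a slope of 1. The list medians run from 0.69 for the thick ascending limb to -0.25 for the inner medullary collecting duct, and all passing genes lie on the right.

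Macrophage genes mark no tubule segment, and several of them rose with the score. Of 11 genes, 3 lay below all 10 other libraries (5.45% of all genes did). Among these, 2 were at least 2-fold lower, Csf1r and Cx3cr1 (1.56% of all genes), and the list's median log2 difference was -0.97. Of 10 slopes 9 were positive, the median was 0.61, and 4 passed (1.13% of all genes rose). Csf1r, the receptor for the main macrophage growth factor, had 14.2, 15.3 and 8.49 CPM in male saline 2, female saline 1 and female saline 6, against 19.0, 23.4 and 40.6 CPM in the other 10, and a slope of 0.65 ± 0.11 (SE, adjusted p = 0.0139, edgeR). C1qa, C1qb and C1qc, the 3 chains of complement C1q, had slopes of 0.69 ± 0.14, 0.71 ± 0.11 and 0.57 ± 0.12 (adjusted p = 0.0384, 0.00944 and 0.0465). C1qb had 6.21, 9.99 and 4.77 CPM in the low libraries and 9.81, 15.7 and 19.6 CPM in the others, so that female saline 1 just overlapped. Lyz2, the lysozyme of macrophages, had 32.8, 14.9 and 26.5 CPM against 24.3, 46.0 and 77.5 CPM, and its slope did not pass (adjusted p = 0.137). Without female saline 7 none of the 4 passed (adjusted p from 0.0865 to 0.218), while the median slope was 0.77.

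No proximal tubule gene passed the slope test. All 17 listed genes were measured, 0 lay outside the range of the other 10 in the 3 low libraries, and 0 of 17 slopes passed. Only 5 of the slopes were positive, with a median of -0.21, and 1 had an unadjusted p under 0.05. Kap, a kidney androgen-regulated protein of proximal tubule cells, had 231, 139 and 92.2 CPM in the 3 low libraries, against 83.1, 219 and 579 CPM in the other 10, and a slope of 0.08 ± 0.46 (SE, adjusted p = 0.965, edgeR). Lrp2, the endocytic receptor megalin, had 18.3, 29.3 and 15.3 CPM against 8.12, 35.6 and 94.6 CPM, and a slope of 0.28 ± 0.49 (adjusted p = 0.870). The standard errors were wide, and the summed level of the list ran from 209.8 to 1209 CPM among the other 10. The median log2 difference from the other libraries of the same sex was -0.34, 0.09 and -0.998 in male saline 2, female saline 1 and female saline 6, so the 3 low libraries did not share a direction.

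Collecting duct principal cell genes split. Aqp2, above, and Fxyd4, a regulator of the sodium pump, overlapped between the groups and had slopes of -0.04 ± 0.16 and -0.11 ± 0.16 (adjusted p = 0.953 and 0.834, edgeR), and likewise Aqp3, the basolateral water channel (slope -0.00 ± 0.16, adjusted p = 0.995). Scnn1a, the alpha subunit of the epithelial sodium channel, had 41.9, 51.7 and 15.5 CPM in the 3 low libraries, against 52.6, 72.0 and 98.1 CPM in the other 10, and rose with the score with a slope of 0.53 ± 0.09 (SE, adjusted p = 0.0168). Hsd11b2, the enzyme that shields the mineralocorticoid receptor from glucocorticoids, had 104, 109 and 49.7 CPM against 119, 188 and 282 CPM, and its slope of 0.49 ± 0.11 did not pass (adjusted p = 0.0572). Scnn1g, the gamma subunit of the channel, singled out after its values were seen, had 27.7, 25.7 and 15.6 CPM against 37.0, 42.4 and 62.1 CPM. It lay below all 10, with a slope of -0.01 ± 0.13 (adjusted p = 0.983). Scnn1b, the beta subunit, had 37.5, 43.5 and 23.1 CPM against 40.8, 51.2 and 69.0 CPM, so its groups overlapped, and its slope of 0.23 ± 0.15 did not pass (adjusted p = 0.586). Of the 11 principal cell genes measured, 1 slope passed, that of Scnn1a, and it did not pass without female saline 7 (adjusted p = 0.110).

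No inner medullary collecting duct gene lay apart in the 3 low libraries. Of 5 genes of that list with enough counts, 0 lay outside the range of the other 10, 0 slopes passed, the median log2 difference was 0.25 and the median slope -0.25. Akr1b3, the aldose reductase that makes sorbitol in concentrated urine, had 5082, 6177 and 7249 CPM in male saline 2, female saline 1 and female saline 6, against 3602, 4442 and 5572 CPM in the other 10. Its groups overlapped, since male saline 2 lay inside the range of the other 10, and its slope was -0.21 ± 0.11 (SE, adjusted p = 0.446, edgeR). Aqp4, a basolateral water channel, had 850.5, 784 and 842 CPM in the 3 low libraries, against 628, 768 and 990.1 CPM in the other 10, and its slope of -0.34 ± 0.09 did not pass (adjusted p = 0.110).

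Thin limb genes held both directions. Of 8 thin limb genes, Cryab, the small heat shock protein abundant in the papilla, had 3598, 3445 and 4123 CPM in the 3 low libraries, against 2053, 2697 and 2868 CPM in the other 10, and Slc4a11, a membrane transporter, had 324, 319 and 316 CPM against 175, 229.5 and 307 CPM. These 2 lay above all 10. Aqp1, the water channel of thin descending limbs, had 1507, 1668 and 1572 CPM against 1693, 1839 and 2369 CPM. It lay below all 10, as did Bst1, a membrane enzyme that was singled out after its values were seen. In all, 3 of the 8 lay below all 10, against 5.45% of all genes, and 2 above, against 2.66%. The list's median log2 difference was -0.13. None of the 8 slopes passed, and the list's median slope was -0.03.

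Of 10 endothelial genes, Emcn, Pecam1 and Plvap lay above all 10 other libraries in the 3 low ones, against 2.66% of all genes. None lay below, and the list's median log2 difference was 0.06. Differences from the other libraries of the same sex were -0.46, -0.16 and -0.07 for Kdr, an endothelial receptor, in male saline 2, female saline 1 and female saline 6. Those of Flt1 were -0.36, -0.05 and -0.25. Emcn, a sialomucin of capillaries and veins, had 644, 792 and 802 CPM in male saline 2, female saline 1 and female saline 6, against 329, 478 and 583 CPM in the other 10, a log2 difference of 0.62. Plvap, which forms the diaphragms of fenestrated capillaries such as the ascending vasa recta, had 1022, 1068 and 1101 CPM against 781, 882 and 959 CPM. None of the 10 slopes passed, and the median slope was -0.01. Of 12 interstitial genes measured, Cd34, a surface marker of capillaries and some fibroblasts, was the 1 above all 10, with 179, 186 and 195 CPM against 125, 142 and 169 CPM. The median log2 difference of that list was 0.14. Its collagen genes Col1a1 (-0.97, -0.84 and -1.41) and Col3a1 (-1.33, -0.70 and -1.14) were lower than the other libraries of the same sex in all 3. Among 8 osmoprotection genes, which serve cells in concentrated urine, Hspa4l, a chaperone of the HSP110 family, had 346, 461 and 470.3 CPM against 147, 273 and 311 CPM and lay above all 10. Its slope was -0.20 ± 0.20 (SE, adjusted p = 0.738, edgeR). The osmoprotection list had a median log2 difference of -0.04, and Slc5a3, another member, was lower in all 3 low libraries (-0.48, -0.66 and -0.31).

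**Figure D4:**
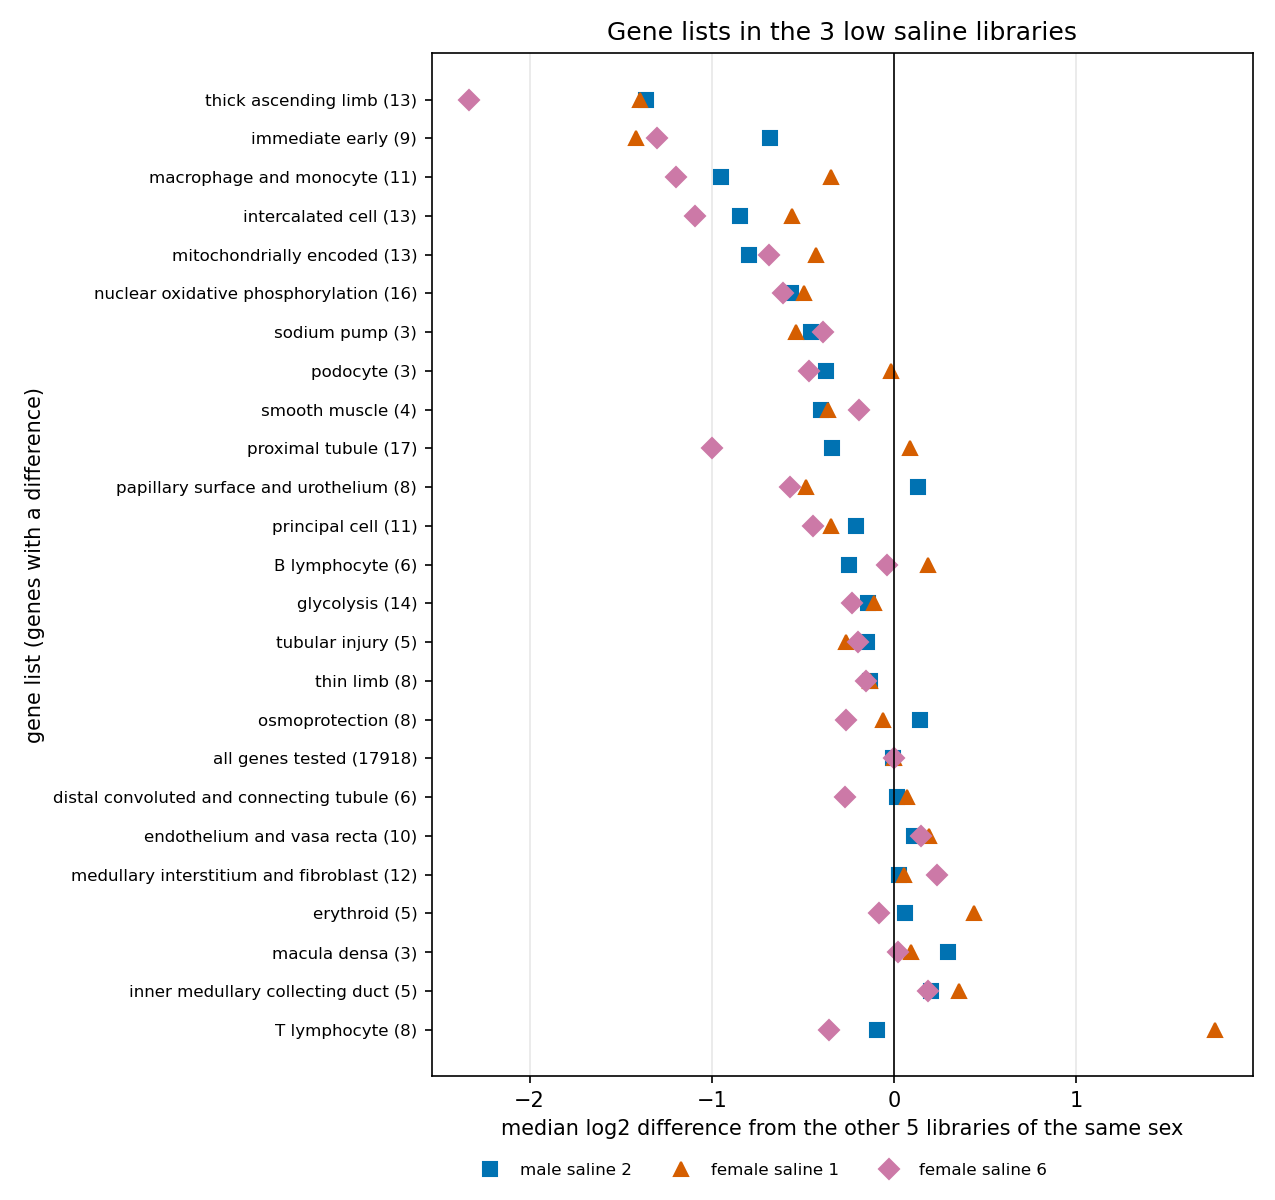
Median log2 difference of each gene list in each of the 3 low libraries from the other 5 saline libraries of the same sex, ordered by the difference over all 3, with the number of genes in brackets. The thick ascending limb list is at -1.36, -1.39 and -2.33 in male saline 2, female saline 1 and female saline 6, the inner medullary collecting duct list lies right of 0 in all 3, and the T lymphocyte list lies far right in female saline 1 alone.

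Genes that fell with the score numbered 15, of which 12 were examined by gene. Cdk18, a cyclin-dependent kinase, had the smallest p of these, a slope of -0.80 ± 0.12 (SE, adjusted p = 0.00944, edgeR), but its levels of 167, 170.1 and 159 CPM in the 3 low libraries lay inside the range of the other 10 (93.2, 145 and 238 CPM as lowest, median and highest). Rhpn2 had 209.8, 198 and 229 CPM against 140.3, 186 and 204 CPM, and a slope of -0.39 ± 0.07 (adjusted p = 0.0214). Crabp2, which carries retinoic acid to its receptor, had 16.9, 25.2 and 18.6 CPM against 8.55, 12.6 and 17.9 CPM, and a slope of -0.60 ± 0.12 (adjusted p = 0.0376). The low libraries overlapped the other 10 for all 12 falling genes of smallest p, which also included Efnb2, an ephrin ligand (-0.51), and Slc26a2, a sulfate transporter (-0.48). Without female saline 7, Rhpn2 passed (adjusted p = 0.0241), and the other 11 had adjusted p-values from 0.105 to 0.306.

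Higher genes in the 3 low libraries were at their lowest in a pair of the other 10. Prss35, a protease-like secreted protein, had 97.1, 147 and 135 CPM in male saline 2, female saline 1 and female saline 6, against a lowest, median and highest value of 9.02, 61.8 and 83.4 CPM in the other 10, a log2 difference of 1.22. Tm6sf1, a lysosomal membrane protein, had 125, 124 and 129 CPM against 17.8, 76.9 and 94.7 CPM, a log2 difference of 0.99. For 9 of the 12 genes of highest difference the lowest of the other 10 was female saline 4 and for the other 3 female saline 2, the libraries of highest Fos. Without this pair, Prss35 was 0.80 and Tm6sf1 0.66, all 12 genes (among them Ptpn22, Cybrd1, Cbln1 and Gm567) still lay above the remaining 8 libraries, and none was 2-fold higher. Over all genes 26 were then at least 2-fold higher, against 45 with the pair. None of the 12 had a slope that passed (adjusted p from 0.311 to 0.910). Immediate early genes had a median log2 difference of -1.22 over 9 genes, with overlap for each. Egr1 had 5.70, 9.65 and 19.7 CPM in the low libraries and 12.8, 63.3 and 271 CPM in the other 10, where female saline 2 and female saline 4 were the highest at 271 and 246 CPM. The part of this pair in the higher genes was not tested otherwise.

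Slopes from the other 10 libraries can be carried to the 3 low ones, which took no part in the fit, by multiplying each by the gap in score between a low library and the mean of the other libraries of its sex. That gap was -1.998, -1.55 and -3.12 log2 units in male saline 2, female saline 1 and female saline 6. For the thick ascending limb list the carried median log2 difference was -1.38, -1.07 and -2.15, and the measured one -1.36, -1.39 and -2.33. Intercalated cell genes gave -0.82, -0.64 and -1.29 carried and -0.85, -0.61 and -1.15 measured. Nuclear oxidative phosphorylation genes gave -0.63, -0.49 and -0.99 carried and -0.56, -0.50 and -0.61 measured, so that in female saline 6 they were less low than the line. For macrophage genes the carried values were -1.22, -0.94 and -1.90 and the measured -0.97, -0.47 and -1.20. The inner medullary collecting duct list gave 0.51, 0.39 and 0.79 carried and 0.21, 0.35 and 0.19 measured. Other lists and genes departed from the line. Erythroid genes gave -1.03, -0.80 and -1.61 carried and 0.06, 0.44 and -0.08 measured. Proximal tubule genes gave 0.42, 0.33 and 0.66 carried and -0.34, 0.09 and -0.998 measured. Cdk18, the falling gene of smallest p, gave 1.59, 1.23 and 2.48 carried and 0.11, 0.25 and 0.15 measured. The scores of the low libraries lie below the range of the fit and come from the genes that chose the split. All these values are descriptions with no test, and the means they are set against come from the libraries of the fit.

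The remaining lists held no gene outside the range of the other 10 and no slope that passed, by edgeR. These were macula densa (3 genes measured, 1 slope with an unadjusted p under 0.05), distal convoluted and connecting tubule (6 and 1), papillary surface and urothelium (8 and 1), smooth muscle (4 and 0), podocyte (3 and 0), erythroid (5 and 0), tubular injury (5 and 1), B lymphocyte (6 and 2), lymphoid stroma and lymphatic vessel (2 and 0) and adipocyte (1 and 1). The 5 erythroid genes all had positive slopes, with a median of 0.51, yet the list's median log2 difference was 0.15. Of 6 neutrophil genes, 0 had enough counts.

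Female saline 1 was examined apart because it also held lymphocyte RNA. Of 12008 genes with at least 100 counts in it, 31 (0.258%) were at least 2-fold above the highest of the other 12 saline libraries, and the 12 of highest ratio are named here. Rag1, the recombinase that cuts antigen receptor genes in developing lymphocytes, had 628 counts, or 26.7 CPM (95% Poisson interval 24.6 to 28.9), against a highest value of 3 counts, or 0.116 CPM, in the other 12. The ratio was 229, with an interval for counting error of 78.1 to 1115. Dntt, the polymerase that adds bases at the joints of those genes, had 15.5 CPM against at most 1.33 CPM, a ratio of 11.6 (7.92 to 17.8). With 1 library there is no test, and the intervals cover counting error only.

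The coreceptor genes Cd4, Cd8a and Cd8b1 of T cells were higher in female saline 1, at 9.65, 18.4 and 8.97 CPM, against at most 0.925, 0.386 and 0.277 CPM in the other 12. Trbc1 and Trbc2, the constant regions of the T cell receptor beta chain, had 10.2 and 11.7 CPM against at most 0.190 and 0.270 CPM. Themis, Thy1, Myb, Arpp21 and Ccr9, which thymocytes express, had 4.72 to 14.7 CPM in female saline 1, against at most 0.0922 to 0.904 CPM in the other 12. Top2a, a topoisomerase of dividing cells, singled out after its values were seen, had 9.14 CPM against at most 1.16 CPM. Trac, the constant region of the alpha chain, was not among the higher genes and had 2.29 CPM in female saline 1, 1.19 and 1.54 CPM in male saline 2 and female saline 6, and 3.16 to 8.33 CPM in the other 10. Lck, a kinase of T cells, was singled out after its values were seen, with 17.0 CPM in female saline 1, 4.31 and 4.34 CPM in male saline 2 and female saline 6, and 1.97 to 3.57 CPM in the other 10, so that it lay above all 10 in each. The summed level of the 18 T lymphocyte genes was 135 CPM in female saline 1, 14.2 and 13.5 CPM in male saline 2 and female saline 6, and 14.9 to 20.6 CPM in the other 10. That of the 13 B lymphocyte genes was 26.8, 20.3 and 21.1 CPM in female saline 1, male saline 2 and female saline 6, inside the 18.9 to 30.2 CPM of the other 10, and that of 8 lymphoid stroma and lymphatic vessel genes was 49.6, 43.9 and 38.8 CPM, inside 34.7 to 54.8 CPM.

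**Figure D5:**
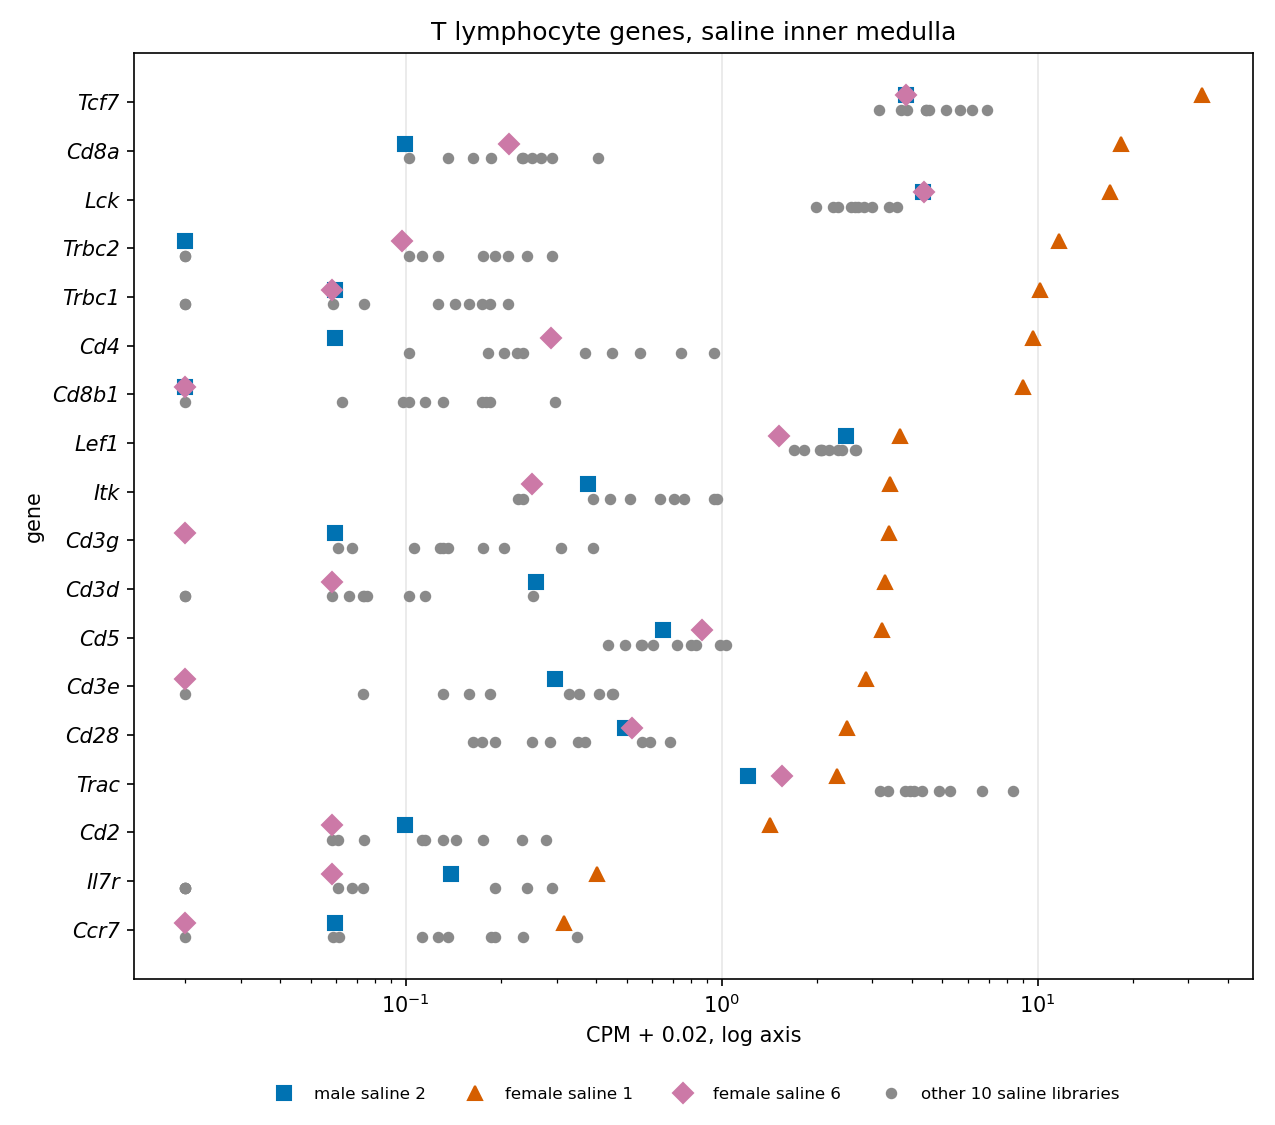
CPM plus 0.02 on a log axis of the 18 listed T lymphocyte genes in each saline library, the 3 low libraries as coloured symbols and the other 10 as grey points, so that a CPM of 0 is drawn at 0.02. Female saline 1 lies right of all other libraries for all genes except Trac and Ccr7.

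Setting female saline 1 aside gave the following values for the lists. With male saline 2 and female saline 6 against the other 10, the median log2 difference was -1.99 for the thick ascending limb, -1.05 for intercalated cells, -1.25 for macrophages, -0.76 for mitochondrially encoded genes, -0.61 for nuclear oxidative phosphorylation and 0.21 for the inner medullary collecting duct. Of the 11 macrophage genes, 7 then lay below all 10 and 7 were 2-fold lower, against 3 and 2 with female saline 1. Of the 13 intercalated cell genes, 11 lay below and 6 were 2-fold lower, against 9 and 2. The T lymphocyte median, 1.16 over 8 genes with all 3 libraries, was -0.24 without female saline 1. Over all genes 496 of 18341 were then at least 2-fold lower and 93 higher, against 279 and 45 of 17918. Those below all 10 went from 977 to 1418 and those above from 476 to 1028. With 2 libraries in place of 3, fewer values have to lie outside the range. A larger count for a list is therefore not by itself a trait of that list. The slope fit holds none of the 3 low libraries, so female saline 1 does not enter it.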

How the data were processed

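Bulk poly(A)-selected RNA-seq libraries of mouse kidney inner medulla were used. The authors deposited raw gene counts; per the submitters' processing notes, Trim Galore 0.6.7, Subread 2.0.1, featureCounts, DESeq2 1.28.1 and the mm10 build are named. For the aligner, annotation release and strand setting, the sources used here say nothing, so antisense or overlapping genes cannot be told apart. Libraries were grouped by label and then split by Umod and Slc12a1. The members and gene lists were chosen with earlier results of these data known.

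Counts were filtered (filterByExpr, minimum count 10) and TMM-scaled in edgeR 4.0.16 with limma 3.58.1 in R 4.3.3. CPM values use the TMM-scaled library sizes, differences within a sex use a pseudocount of 0.5, and log2 CPM a prior count of 2. Slopes came from edgeR's quasi-likelihood test with sex and score as terms, at an adjusted p of 0.05. The SE printed with a slope was derived from that test, as the size of the slope divided by the square root of its F statistic. The scripts were tested on simulated data. Alternatives included DESeq2 1.42.0, other scalings, no filter, other scores and leaving out each library. No pair of libraries was a duplicate (lowest chi-square per gene 7.88 over 36 pairs).

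Named genes are the 12 lowest and 12 highest differences, the 12 of smallest p in each slope direction (mean CPM of at least 5 for both), up to 4 members of highest CPM in each list described with any past a threshold, and the 12 of highest ratio in female saline 1 (at least 100 counts). Intervals cover counting error only. Some genes of the lists are counted in the list values and not reported by name here, and neither is a further motif that was searched.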

Additional observations from a re-analysis of the deposited data

Results flagged for a closer look

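Libraries far from the rest of their sex by Dixon's criterion are listed here. Chance flags about 1 in 20 groups, but most of these genes were chosen for their level in female saline 1 or for the difference of the 3 low libraries, of which male saline 2 is the only male, so their number is not read against that rate. In female saline 1, 12 genes stood far above the other female saline libraries: Rag1 (26.7 CPM), Trbc1 (10.2 CPM), Themis (4.72 CPM), Cd8a (18.4 CPM), Trbc2 (11.7 CPM), Cd8b1 (8.97 CPM), Thy1 (14.7 CPM), Myb (6.37 CPM), Arpp21 (4.84 CPM), Dntt (15.5 CPM), Ccr9 (5.52 CPM) and Cd4 (9.65 CPM). The summed T lymphocyte genes stood at 135 CPM there.

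In male saline 2, Abca13 (47.0 CPM), Dusp15 (11.4 CPM), Cd8a (0.0791 CPM) and the summed smooth muscle genes (35.5 CPM) lay far below the other male saline libraries, and Atp7b (9.10 CPM), Gm567 (40.2 CPM) and Dlgap1 (36.6 CPM) far above them. In male saline 6, Fndc9 (33.2 CPM), Cd4 (0.531 CPM) and the summed adipocyte genes (2.44 CPM) lay far above the other males. The Cd8a and Cd4 values in these males rest on few counts, so counting error is large for them. The nearest other male stood at 0.212 CPM for Cd8a and 0.215 CPM for Cd4.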

How the results depend on the processing

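Of the alternatives, those that changed the number of genes rising and falling with the score (189 and 15) past 1.5-fold were DESeq2's Wald test (455 and 144), no filter (409 and 213), the score of Umod alone (52 and 1), all 13 libraries (1728 and 1207, a fit that holds the libraries of the split) and leaving out the 2 libraries of farthest score (4 and 0). Without the sex term 7 genes fell, and with the score of Slc12a1 alone 62 fell. Leaving out 1 library gave 16 to 285 rising and 2 to 56 falling genes, the extremes without female saline 7 and female saline 2. With 4 falling genes each, male saline 3, female saline 4 and female saline 5 also mattered. The cause was not tested.

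With the replicate number as a block, 0 genes rose and 1 fell. Among the 10 libraries only replicates 3, 4 and 5 hold both a male and a female, so that slope rests on these alone. The terms for sex, replicate number and score nearly use up the 10 libraries and leave almost no residual to test a slope against. Nothing is therefore read from the counts of this fit or from the reversed slopes below. The numbers do not pair the libraries: same-numbered males and females correlated at -0.18 to 0.18 over 6 pairs, and 1 of 6 correlated best with its own number. Under the block the slopes of AC106834.1 (0.15), 2200002D01Rik (0.19), Ptprh (1.54), Crabp2 (0.40), Pcdh7 (0.15), Slc26a2 (0.22) and C1qc (-0.43) reversed, each with an adjusted p of 1 by edgeR.

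For the 3 low libraries against the other 10 (279 lower, 45 higher), males alone gave 680 and 347, females alone 487 and 199, and no filter 101 higher. Leaving out 1 library gave 251 to 496 lower and 30 to 144 higher genes, with 496 and 93 without female saline 1, 144 higher without male saline 2, 92 without female saline 6 and 81 without female saline 3. Of the alternatives chosen after seeing the data, leaving out female saline 2 and female saline 4 gave 26 higher, and ranges by the printed CPM gave 269 lower and 46 higher. With 10 libraries and a score that rests on few of them, a slope that missed the threshold is not shown to be 0.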
